A study of Oryctolagus cuniculus with 15 samples.

Results

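Corneal keratocytes grown on top of a fibrillar collagen matrix (2DF) were compared with keratocytes grown on a collagen-coated dish and lysed directly in that dish (2DC_L). All 6 libraries of these conditions were used, 3 of 2DF and 3 of 2DC_L, out of 15 in the series, and their conditions were read from the library labels. The cells were rabbit keratocytes of the first passage, from the corneas of New Zealand White rabbits, and both conditions were kept in the same serum-free medium until day 6. For 2DF, the cells sat on polymerised bovine type I collagen. These matrices were lifted off with a spatula, incubated in a digestion medium of collagenase and hyaluronidase, pelleted and rinsed before lysis, and many matrices were pooled for each library. For 2DC_L, lysis buffer went straight onto the coated dishes, with no digestion, and several dishes were pooled. The comparison therefore sets fibrillar collagen plus lifting, digestion and centrifugation against a coated dish with none of these, and within these 6 libraries the effects of the substrate and of the harvest cannot be told apart. For this reason the values of 2DC (3 libraries), the coated dish that was incubated in digestion medium and rinsed before lysis but was neither lifted nor pelleted, are given beside several of the results. Library names start with a numbered prefix whose meaning is not given in the sources used here, and no library of 2DF shares a prefix with 2DC_L. Some libraries of 2DC share a prefix with a library of 2DC_L, whereas none shares a prefix with 2DF.

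Keratocytes are the resident cells of the corneal stroma. In a quiescent state they keep up the transparent collagen lamellae by making keratan sulfate proteoglycans and crystallins, and injury can turn them into proliferating fibroblasts or contractile myofibroblasts. Immediate early genes such as FOS, JUN and EGR1 are transcribed within minutes of a growth factor, mechanical or stress stimulus without new protein synthesis, and their mRNAs are short-lived. Mitotic genes are transcribed in dividing cells, and the genes of cholesterol synthesis are switched on by SREBP2 when sterols in the endoplasmic reticulum run low.

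Between 16167154 and 17674886 reads were counted per library in 2DF and between 17973130 and 30518172 in 2DC_L. The 10 genes with the most reads took 17.1% to 21.8% of the counts in 2DF and 24.0% to 26.5% in 2DC_L. Correlations of log2 CPM between libraries of a condition were at least 0.988. The markers of keratocytes were abundant in every library. KERA (keratocan, a keratan sulfate proteoglycan) lay at 2808, 2502 and 3351 FPKM in 2DC_L and at 1915, 2631 and 2381 FPKM in 2DF, and LUM (lumican) at 6526 to 7387 and 8738 to 10712 FPKM. FPKM values are read counts scaled to gene length and library size, as deposited. Errors (±) are SDs of 3 libraries for FPKM and standard errors (SE) for log2 fold changes, and where no condition is named, values of 2DC_L come before those of 2DF. As these are bulk RNA samples, fewer cells that express a gene and less RNA of it per cell cannot be told apart.

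A differentially expressed gene (DEG) had an adjusted p of at most 0.05 in edgeR's quasi-likelihood test together with a log2 fold change no smaller than 1 in size. Of 13152 genes tested, 972 were DEGs (7.39%), of which 386 were higher in 2DF (2.93%) and 586 lower (4.46%). With no limit on the fold change 22.6% of the genes passed the adjusted p. The libraries of the conditions did not overlap for 964 of these DEGs, against 40.6% of all genes tested. The median log2 fold change was 1.62 among the DEGs higher in 2DF and -1.66 among those lower, and 0.0047 over all genes tested. A change of at least 4-fold was seen for 129 DEGs higher and 213 lower. For genes that have a symbol, whose libraries did not overlap and whose mean reached 1 FPKM, the 10 largest increases were FOS, FOSB, EGR1, DUSP2, EGR2, NR4A1, KCNA5, JUN, IER2 and ZFP36, which apart from the potassium channel KCNA5 are immediate early genes. The 10 largest decreases were KIAA0101, CDK1, TCF19, STMN1, CKAP2L, CCNB1, TK1, GINS4, SLCO1B3 and TOP2A, which apart from the transporter SLCO1B3 are genes of DNA replication and mitosis.

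**Figure D1:**
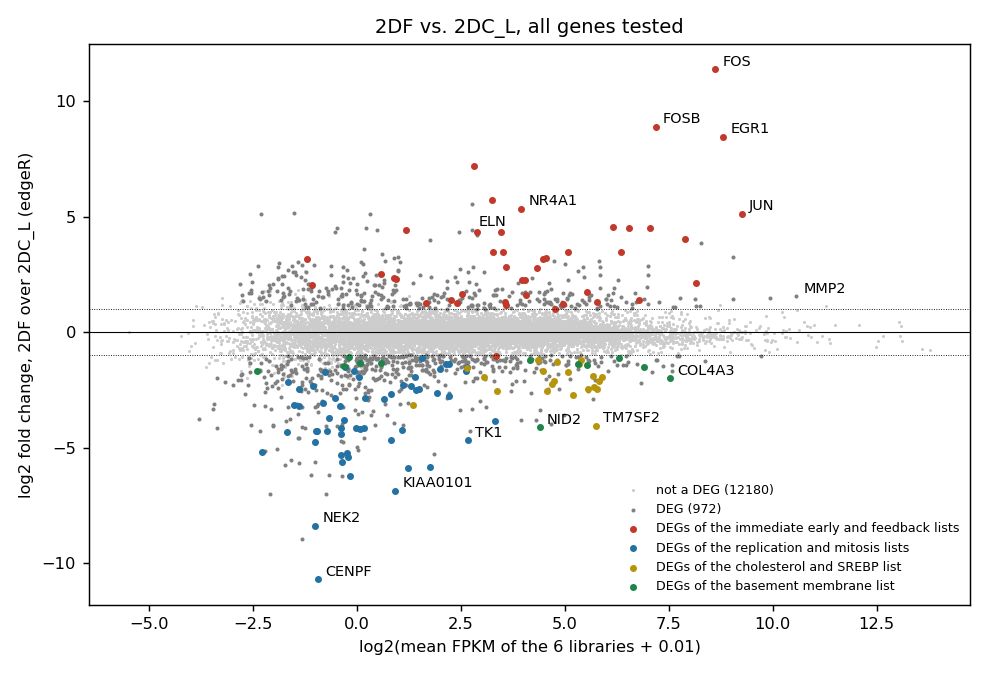
Each point is a gene (13152 in all), with log2 of its mean FPKM over the 6 libraries plus 0.01 on the x axis and the edgeR log2 fold change of 2DF over 2DC_L on the y axis. Dark grey points are DEGs and light grey points other genes, colours mark DEGs of the named gene lists and dotted lines a log2 fold change of 1 in size. FOS, at 11.37, FOSB and EGR1 stand above all other DEGs of these lists, and the replication and mitotic DEGs lie below zero at low FPKM.

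The DEGs were unevenly spread over the gene lists. Of the AP-1 list 6 of 7 tested genes were higher in 2DF, of the list of EGR, NR4A, KLF and other early response genes 27 of 29, and of the feedback inhibitors 10 of 20, with 1 lower. The mitotic list had 39 of 43 lower, cholesterol synthesis and SREBP targets 21 of 27, DNA replication 16 of 34 and basement membrane genes 12 of 27, and none of these lists held a gene that was higher in 2DF. No DEG was found among the 14 heat shock genes tested, too few to tell this from the 7.39% over all genes tested. With no limit on the fold change, 4 of them passed the adjusted p, all higher in 2DF. The list member HSPA1A had no entry. Over all 37 lists, 899 genes were listed, 841 were in the table and 716 were tested, and 253 of these were DEGs, 94 higher and 159 lower.

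**Figure D2:**
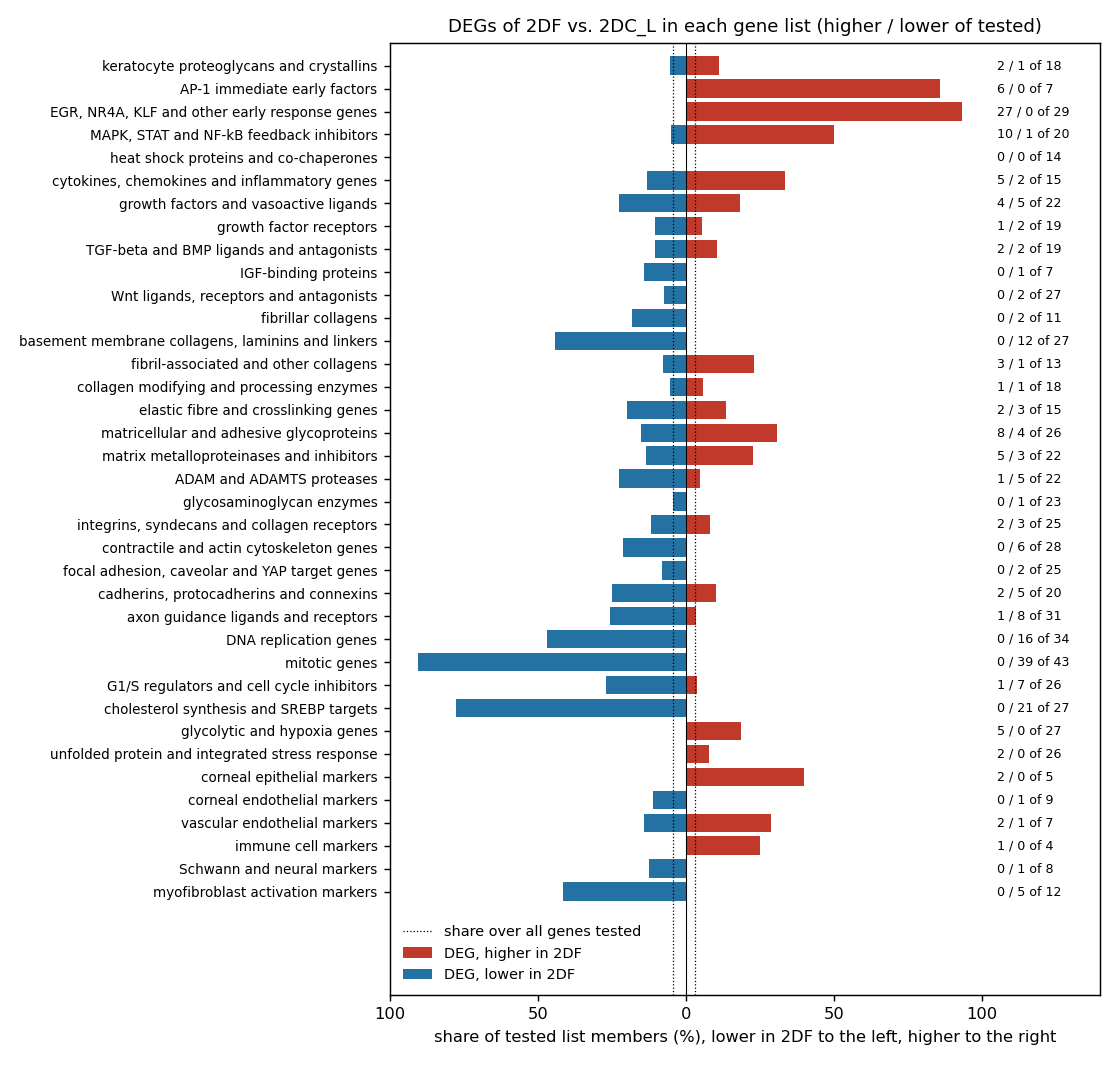
Bars give the share of tested members of each gene list that were DEGs, in percent, to the right where higher in 2DF and to the left where lower, with the counts at the right margin. Dotted lines mark 2.93% and 4.46%, the shares over all genes tested. The early response lists reach furthest to the right and the mitotic and cholesterol lists furthest to the left.

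FOS, the AP-1 subunit that pairs with JUN (chromosome 20, 29860066 to 29863336 in oryCun2), showed the largest difference of any gene with a symbol and a mean of at least 1 FPKM. It lay at 0.311, 0.251 and 0.343 FPKM in 2DC_L and at 689, 792 and 876 FPKM in 2DF, which is 11.37 ± 0.21 on the log2 scale (SE; edgeR adjusted p = 1.7e-09). These levels rest on 12 to 19 reads per library in 2DC_L and 25496 to 32231 in 2DF. FOSB (unplaced scaffold Un0309, 121963 to 125744), a further FOS-family subunit, was at 0.696, 0.699 and 0.397 FPKM in 2DC_L and at 264, 289 and 318 FPKM in 2DF (log2 fold change 8.87 ± 0.20, edgeR adjusted p = 7.3e-09). EGR1, a zinc finger transcription factor induced by serum and strain (chromosome 3, 20738615 to 20742487), was at 2.42, 2.17 and 3.17 FPKM against 785, 895 and 1013 FPKM (log2 fold change 8.46 ± 0.22, edgeR adjusted p = 1.1e-08). For each of these genes the 3 libraries of 2DF lay close together and far above the 3 of 2DC_L.

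JUN (chromosome 13, 107997083 to 107998198) was already present in 2DC_L at 29.2, 33.2 and 41.5 FPKM and reached 1188, 1132 and 1248 FPKM in 2DF, higher by 5.12 ± 0.16 on the log2 scale (edgeR adjusted p = 5.8e-08). ATF3, a stress-induced partner of JUN, rose from 1.02 ± 0.24 to 21.2 ± 10.6 FPKM, with 2DF replicate 2 at 9.48 FPKM and the other 2DF libraries at 23.9 and 30.1 FPKM. MAFF, a small MAF factor, rose from 4.50 ± 0.183 to 40.4 ± 7.66 FPKM. FOSL1 rose less, from 1.86 ± 0.316 to 4.43 ± 1.30 FPKM (log2 fold change 1.25), and was under the fold threshold without 2DF replicate 1 (0.98). FOSL2 was the tested member that was not a DEG, with 21.8 ± 1.95 and 34.1 ± 4.50 FPKM and a log2 fold change of 0.65 (edgeR adjusted p = 0.0038).

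Among the other early transcription factors, EGR2 (0.183, 0.441 and 0.489 against 21.3, 15.5 and 19.4 FPKM) and EGR3 (0.194 ± 0.0784 against 4.34 ± 1.71 FPKM) had log2 fold changes of 5.72 and 4.43. The orphan nuclear receptor NR4A1 lay at 0.713 ± 0.289 and 30.3 ± 8.48 FPKM (log2 fold change 5.35) and NR4A2 at 0.607 ± 0.0713 and 3.08 ± 0.665 FPKM (2.35). The Krüppel-like factors KLF2, KLF4 and KLF10 had log2 fold changes of 3.48, 3.45 and 3.48, and KLF4 reached 150 ± 19.1 FPKM in 2DF. KLF6 was at the fold threshold, with 1.01, and was under it in 4 of the 6 fits that left out 1 library (0.88 to 0.94 without 2DC_L replicate 1, 2DC_L replicate 2, 2DF replicate 1 or 2DF replicate 3). HES1, a transcriptional repressor downstream of Notch, went from 0.735 ± 0.268 to 14.1 ± 1.61 FPKM (log2 fold change 4.33 ± 0.23, edgeR adjusted p = 2.4e-06).

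IER2 was at 5.82 ± 0.939 and 138 ± 15.7 FPKM, the antiproliferative gene BTG2 at 11.1 ± 0.85 and 253 ± 3.69 FPKM, and ZFP36, which binds AU-rich mRNAs and promotes their decay, at 7.80 ± 0.60 and 179 ± 15.1 FPKM. Their log2 fold changes were 4.57, 4.51 and 4.53. CYR61, a secreted matricellular protein, lay at 89.6, 103 and 114 FPKM in 2DC_L and at 844, 885 and 1148 FPKM in 2DF (3.24 ± 0.16). PTGS2, the inducible cyclooxygenase, rose from 4.66 ± 1.20 to 42.0 ± 6.64 FPKM, MYC from 8.38 ± 0.583 to 25.3 ± 7.04 FPKM, and the HLH inhibitors ID1 and ID3 by 1.72 and 2.79 on the log2 scale. The remaining tested members of the list were CTGF and SGK1. CTGF, a matricellular relative of CYR61, overlapped between the conditions (120, 151 and 149 against 91.0, 124 and 180 FPKM). SGK1, a kinase of salt and glucocorticoid responses, had a log2 fold change of -0.40 (edgeR adjusted p = 0.044), below the fold threshold.

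Of 20 feedback inhibitors of MAPK, STAT and NF-kB signaling, 10 were higher in 2DF, 1 was lower and 9 were not DEGs. DUSP2, a nuclear phosphatase of MAP kinases, was at 0.0867, 0.133 and 0.0378 FPKM in 2DC_L, which is 1 to 6 reads per library, and at 14.3, 16.8 and 11.1 FPKM in 2DF (log2 fold change 7.20 ± 0.30, edgeR adjusted p = 5.1e-07). DUSP1 went from 27.3 ± 5.09 to 450 ± 40.4 FPKM (log2 fold change 4.05), and the JAK-STAT inhibitors SOCS1 and SOCS3 rose by 2.83 and 3.45 on the log2 scale. DUSP4, DUSP5, DUSP6, SPRY4, NFKBIZ and ERRFI1 made up the rest of the 10. RGS2, a regulator of G protein signaling, was the member that was lower in 2DF, at 13.7 ± 1.39 and 6.64 ± 1.98 FPKM (-1.04), and it was under the fold threshold without 2DC_L replicate 3 (-0.96) or without 2DF replicate 1 (-0.81). KCNA5, a voltage-gated potassium channel outside the lists, was among the 10 largest increases, from 0.0701 ± 0.0447 to 2.39 ± 1.04 FPKM (log2 fold change 5.12 ± 0.57).

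The digested coated dish, 2DC, differed from 2DC_L in 36 of 13608 genes tested (0.265%), 35 higher in 2DC (0.257%) and 1 lower (0.00735%), and 0.367% passed the adjusted p at any fold change. 2DF differed from 2DC in 658 of 13258 (4.96%), 270 higher (2.04%) and 388 lower (2.93%), and 14.4% passed the adjusted p at any fold change. These comparisons share libraries with 2DF vs. 2DC_L and with each other, so their values are set side by side only. Library name prefixes are also shared between some libraries of 2DC and 2DC_L but not with 2DF. What part this had in the counts was not tested. In 2DC, 3 of the 7 AP-1 genes, 14 of the 29 early response genes and 4 of the 20 feedback inhibitors were DEGs above 2DC_L, and no tested member of the mitotic, replication, cholesterol or basement membrane lists was a DEG between 2DC and 2DC_L.

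Several early genes lay at much the same level in 2DC as in 2DF. EGR2 was at 22.2 ± 3.26 FPKM in 2DC (log2 fold change of 2DF over 2DC -0.23), DUSP2 at 15.2 ± 3.27 FPKM (-0.11), CYR61 at 979 ± 42.0 FPKM, SOCS1 at 20.8 ± 6.29 FPKM (0.03) and IER3, a stress survival gene, at 494 ± 46.4 FPKM against 462 ± 65.3 FPKM in 2DF and 107 ± 13.6 FPKM in 2DC_L. EGR1 was at 623 ± 46.2 FPKM in 2DC, 0.53 ± 0.13 below 2DF on the log2 scale. Others were higher again in 2DF. FOS was at 237, 275 and 214 FPKM in 2DC, so that the log2 fold change was 9.66 ± 0.17 for 2DC over 2DC_L and 1.71 ± 0.14 for 2DF over 2DC (edgeR adjusted p = 0.00023). FOSB, at 17.7 ± 2.32 FPKM in 2DC, was higher in 2DF by a further 4.04 ± 0.14.

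ATF3, HES1 and SOCS3 were not DEGs between 2DC and 2DC_L and were higher in 2DF than in 2DC. ATF3 was at 1.74 ± 0.661 FPKM in 2DC, with a log2 fold change of 0.74 over 2DC_L (edgeR adjusted p = 0.87), and was higher in 2DF than in 2DC by 3.62 ± 0.43. HES1, at 1.48 ± 0.062 FPKM in 2DC, was at 1.05 ± 0.29 over 2DC_L (edgeR adjusted p = 0.59) and was higher in 2DF than in 2DC by 3.25 ± 0.15. SOCS3, at 2.96 ± 0.704 FPKM in 2DC, was at 0.87 ± 0.26 over 2DC_L (edgeR adjusted p = 0.67) and was higher in 2DF than in 2DC by 2.60 ± 0.24. SRF, the serum response factor, went the other way. It was at 6.80 ± 0.168 FPKM in 2DC_L, 26.9 ± 2.61 in 2DC and 16.6 ± 1.97 in 2DF, higher in 2DF than in 2DC_L by 1.30 ± 0.10 but lower than in 2DC (log2 fold change -0.69 ± 0.11, edgeR adjusted p = 0.0044).

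**Figure D3:**
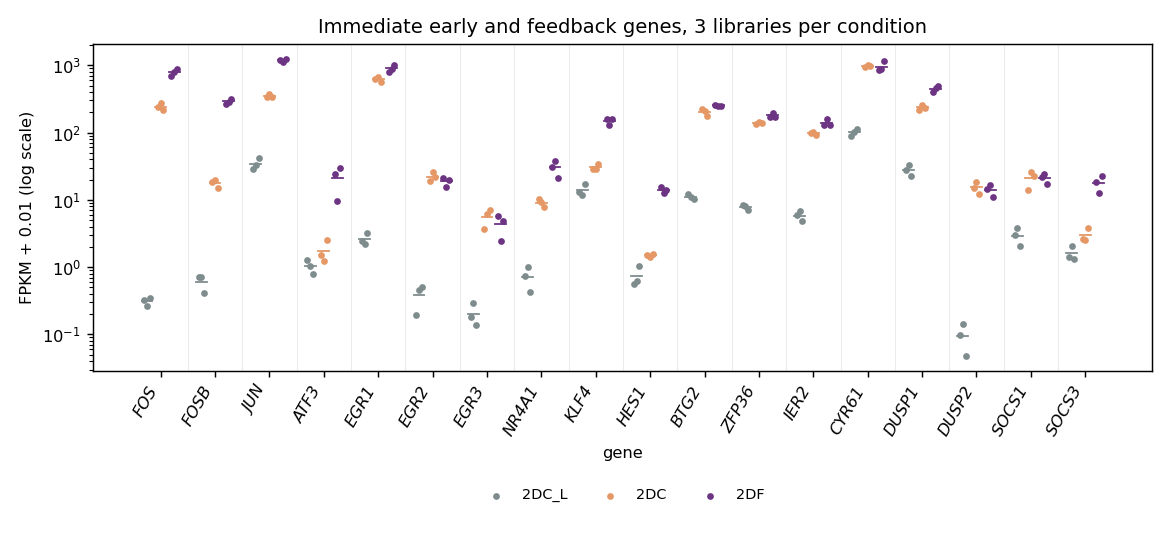
FPKM plus 0.01 on a log axis for 18 early response and feedback genes in 2DC_L, 2DC and 2DF, with a point per library and a bar at the mean of the 3 libraries. Every 2DF library lies above every 2DC_L library for all 18 genes. In 2DC, EGR2, DUSP2, CYR61 and SOCS1 overlap with 2DF, whereas ATF3, HES1 and SOCS3 lie nearer to 2DC_L.

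Stress and inflammatory genes were divided. DDIT3 (CHOP), a transcription factor of the integrated stress response, lay at 12.5, 16.0 and 14.6 FPKM in 2DC_L and 126, 97.1 and 81.6 FPKM in 2DF (log2 fold change 2.83 ± 0.17, edgeR adjusted p = 4.6e-06), and CHAC1, which degrades glutathione, at 0.430 ± 0.176 and 2.32 ± 0.126 FPKM. The other 24 tested genes of the unfolded protein and integrated stress response were not DEGs, and the median over the list was -0.026. The DEGs were 7.69% of the 26 genes tested in this list, near the 7.39% over all genes tested. The chemokines CXCL8 (neutrophils; 7.85, 15.3 and 12.6 against 81.9, 63.8 and 156 FPKM) and CCL2 (monocytes; 25.2, 37.7 and 31.3 against 169, 169 and 340 FPKM) were higher by 3.09 and 2.85, and the cytokine LIF by 3.06. CFB, which the alternative pathway of complement needs, was lower in 2DF, at 102 ± 14.7 and 43.0 ± 5.46 FPKM (-1.24).

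Genes of mitosis were far lower in 2DF. Of the mitotic list 39 of 43 tested genes were lower, with a median log2 fold change of -2.91. CDK1, the kinase that drives entry into mitosis (chromosome 18, 25387628 to 25403308), was at 3.05, 4.40 and 6.43 FPKM in 2DC_L and at 0, 0.175 and 0.0443 FPKM in 2DF, which is 114 to 161 reads against 0 to 4 per library (log2 fold change -5.87 ± 0.60, edgeR adjusted p = 0.00015). MKI67, the proliferation marker Ki-67, was at 0.934, 1.05 and 2.54 FPKM against 0.0119, 0.071 and 0.00601 FPKM (-5.61 ± 0.63, edgeR adjusted p = 0.00027). In both genes 2DC_L replicate 3 was the highest library, and every 2DF library was far below every 2DC_L library.

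CENPF, a kinetochore protein, and NEK2, a centrosomal kinase, had no read in any 2DF library. With a floor of 3 reads per library they were at least 58.4-fold and at least 11.6-fold lower in 2DF, from 1.03 ± 0.757 and 0.980 ± 0.20 FPKM in 2DC_L. TOP2A, the topoisomerase that untangles replicated chromosomes, was at 2.84, 3.04 and 6.11 FPKM in 2DC_L and 0.186, 0.175 and 0.267 FPKM in 2DF (-4.23 ± 0.35), and CCNB1, the cyclin partner of CDK1, at 3.41 ± 2.33 and 0.125 ± 0.11 FPKM (-4.68). STMN1, which destabilises microtubules, and CKAP2L, a spindle protein, had log2 fold changes of -5.26 and -5.10. The tested mitotic genes that were not DEGs were CDC25B, AURKA, PLK1 and PTTG1. CDC25B, the phosphatase with the highest mean of the list, was at 13.1 ± 0.299 and 7.22 ± 0.317 FPKM (-0.85, edgeR adjusted p = 0.00023).

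Replication genes differed to unequal degrees. KIAA0101, the PCNA-binding factor of the replication fork (chromosome 17, 7844369 to 7863652), was at 2.75, 3.55 and 4.97 FPKM in 2DC_L and at 0, 0 and 0.0823 FPKM in 2DF. Its 366 reads in 2DC_L against 2 in 2DF give a ratio of 129.8 between the conditions, with an exact 95% interval of 35.7 to 1076 that covers counting error only, and the fitted log2 fold change was -6.88. TCF19, a factor of late G1, went from 6.65 ± 1.04 to 0.111 ± 0.0958 FPKM (-5.85 ± 0.36), and TK1, the thymidine kinase of S phase, from 12.8, 13.5 and 10.6 to 0.222, 0.618 and 0.582 FPKM (-4.68 ± 0.28, edgeR adjusted p = 4.8e-06). GINS4, a subunit of the replicative helicase, was lower (-4.57 on the log2 scale). PCNA, the sliding clamp and the most abundant gene of the list, was at 36.9 ± 4.79 and 22.1 ± 2.00 FPKM, a log2 fold change of -0.73 that is below the fold threshold (edgeR adjusted p = 0.0022).

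Among regulators of the G1/S transition, 7 of 26 were lower, among them E2F1, the activator of S phase genes, at 2.53 ± 0.641 and 0.154 ± 0.111 FPKM (-4.01 ± 0.43). CDKN1A (p21), an inhibitor of cyclin-dependent kinases, was the member that was higher, at 51.2, 68.1 and 38.0 against 260, 173 and 172 FPKM (1.95 ± 0.23, edgeR adjusted p = 0.00031). SLCO1B3, an organic anion transporter outside the lists, was also among the 10 largest decreases, from 12.5 ± 2.31 to 0.638 ± 0.195 FPKM (-4.29 ± 0.23).

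In the digested 2DC libraries the proliferation genes varied widely. CDK1 was at 0.551, 3.68 and 10.4 FPKM, MKI67 at 0.199, 1.09 and 3.36 FPKM and TK1 at 2.55, 10.5 and 24.4 FPKM, with replicate 1 low and replicate 3 high for each. All 3 libraries were nevertheless above every 2DF library for these genes, and the fold changes between 2DC and 2DC_L were near zero with large errors (log2 fold change 0.08 ± 0.78 for CDK1 and 0.05 ± 0.80 for MKI67). SLCO1B3 had the same spread, at 2.92, 10.4 and 18.9 FPKM in 2DC. Between 2DF and 2DC, 22 of 35 tested mitotic genes were lower in 2DF and none higher, with a median of -2.43. Of 32 tested replication genes 11 were lower there and none higher, with a median of -0.97.

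Genes of cholesterol synthesis were lower in 2DF at early and late steps of the pathway, in 21 of 27 cases, with a median log2 fold change of -1.91. TM7SF2, a sterol reductase late in the pathway (unplaced scaffold Un0244, 168323 to 172200), was at 100, 87.5 and 116 FPKM in 2DC_L and at 5.65, 5.80 and 6.82 FPKM in 2DF (-4.05 ± 0.14, edgeR adjusted p = 7.6e-08). HMGCS1, the synthase at the start of the pathway, went from 43.4 ± 5.88 to 9.89 ± 2.56 FPKM (-2.12). Further down, FDPS, which makes farnesyl pyrophosphate, was at 57.0, 63.0 and 71.9 against 9.75, 8.98 and 10.3 FPKM (-2.72 ± 0.11, edgeR adjusted p = 4.4e-07). SQLE, LSS and NSDHL, which make and process the first sterols, were lower (-2.23, -1.93 and -2.54 on the log2 scale).

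SREBP targets that carry and sense sterols were lower as well. INSIG1, which retains SREBP in the endoplasmic reticulum, went from 88.4 ± 18.1 to 16.7 ± 2.72 FPKM (-2.39), and STARD4, a sterol carrier, from 4.56 ± 0.608 to 0.502 ± 0.155 FPKM (-3.17). The 6 tested members that were not DEGs were PMVK, HSD17B7, ACACA, ELOVL6 and the SREBP genes SREBF1 and SREBF2 themselves. In 2DC, TM7SF2 was at 53.2, 75.8 and 82.0 FPKM, with a log2 fold change of -0.53 ± 0.16 against 2DC_L (edgeR adjusted p = 0.70), and 2DF was at -3.52 ± 0.18 against 2DC (edgeR adjusted p = 2.6e-05). The median of the list was -0.26 for 2DC over 2DC_L and -1.5 for 2DF over 2DC. Of 27 tested members 20 were DEGs below 2DC in 2DF.

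**Figure D4:**
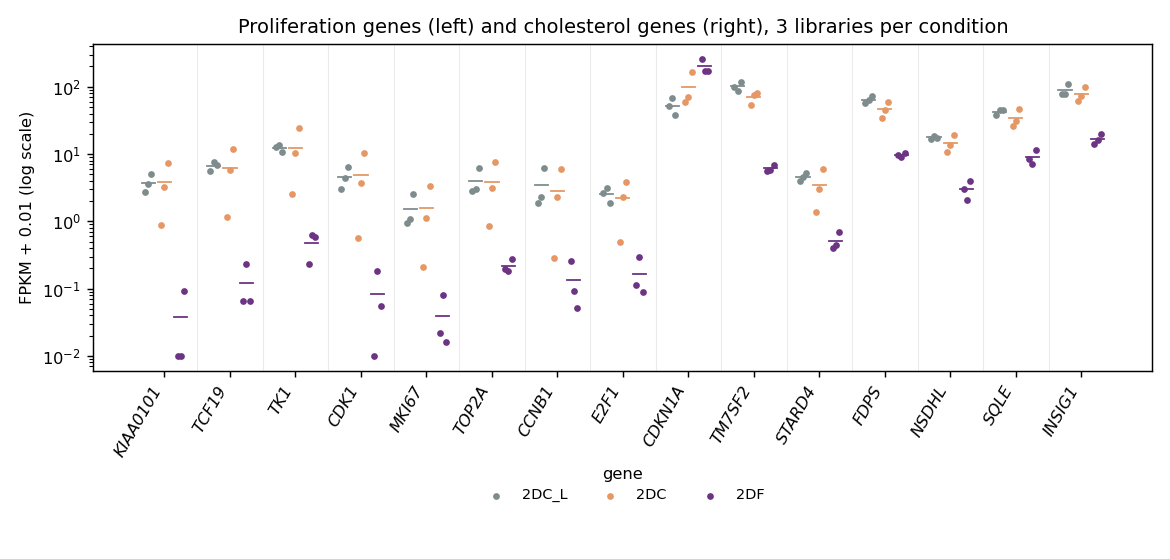
FPKM plus 0.01 on a log axis for proliferation genes (left, KIAA0101 to CDKN1A) and cholesterol genes (right, TM7SF2 to INSIG1) in 2DC_L, 2DC and 2DF, with a point per library and a bar at the mean of the 3 libraries. Apart from CDKN1A, which is higher in 2DF, every 2DF library lies below every 2DC_L and 2DC library. The 2DC points of the proliferation genes are spread, with CDK1 from 0.551 to 10.4 FPKM.

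Of 11 fibrillar collagens tested 2 were lower in 2DF and none higher. COL1A1, which with COL1A2 forms type I collagen, was at 19544, 16792 and 17361 FPKM in 2DC_L and 7937, 10095 and 13406 FPKM in 2DF, without overlap but with an edgeR adjusted p of 0.062 (log2 fold change -0.76 ± 0.26). COL1A2 gave -0.72 ± 0.25 (edgeR adjusted p = 0.063). COL5A1, COL5A2 and COL11A1, the chains that limit fibril diameter, had log2 fold changes of -0.40, -0.26 and -0.26 and were not DEGs. COL5A3 (unplaced scaffold Un0135, 271760 to 310395), a further type V chain, was at 32.5, 34.8 and 18.9 FPKM in 2DC_L and 0.707, 1.21 and 4.21 FPKM in 2DF (-3.81 ± 0.53, edgeR adjusted p = 0.00085). COL3A1, a collagen of healing wounds, was scarce in both conditions, at 1.94 ± 0.248 and 0.630 ± 0.223 FPKM (-1.61). No other of the 11 fibrillar collagens tested was a DEG. Between 2DF and 2DC, 1 of 11 was lower in 2DF and none higher, with a median of -0.26.

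Basement membrane genes were lower in 2DF in 12 of 27 cases and higher in none, with a median of -1.09. Between 2DF and 2DC, 7 of 27 tested were lower in 2DF and none higher, with a median of -0.68. The list median of 2DC over 2DC_L was -0.19. NID2, a nidogen that links laminin and type IV collagen networks (chromosome 17, 70920218 to 70996320), was at 47.2, 31.9 and 40.5 FPKM in 2DC_L and 2.31, 1.48 and 3.02 FPKM in 2DF (-4.12 ± 0.24, edgeR adjusted p = 3.9e-06). COL4A3 and COL4A4, chains of the same type IV collagen network, were at 253, 207 and 433 against 72.4, 78.1 and 72.4 FPKM (-1.99 ± 0.24) and at 157, 136 and 239 against 54.3, 71.1 and 60.3 FPKM (-1.51 ± 0.21). COL4A5, COL4A6, the laminin chains LAMA1, LAMA4, LAMA5 and LAMB1, NID1, HSPG2 and NPNT completed the 12. COL8A2, the most abundant member, was not a DEG (341 ± 34.9 and 372 ± 42.1 FPKM). The count of 12 against 2DC_L depended on 2DC_L replicate 3, without which 7 of the genes were DEGs. Of 13 fibril-associated and other collagens 3 were higher (COL10A1 by 1.43, COL17A1 by 2.43 and COL23A1 by 1.51) and 1 was lower, with a median of 0.23. The lower member was COL14A1, a collagen on the fibril surface, at 471 ± 83.6 and 196 ± 33.7 FPKM (-1.26). Without 2DC_L replicate 2 or without 2DF replicate 1, 1 of these collagens was higher.

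Of 15 elastic fibre and crosslinking genes 2 were higher in 2DF and 3 lower (1 higher without 2DC_L replicate 3, and 5 lower without 2DF replicate 2). ELN (elastin) was at 0.965, 0.580 and 0.099 FPKM in 2DC_L and 9.22, 8.59 and 21.3 FPKM in 2DF (4.44 ± 0.52, edgeR adjusted p = 0.00032). LOXL1, the lysyl oxidase that crosslinks elastin, was at 190, 239 and 101 against 332, 380 and 458 FPKM (1.15), and was under the fold threshold without 2DC_L replicate 3 (0.87). LOXL4 and EMILIN2, an elastic fibre glycoprotein, were lower (-1.56 and -2.14 on the log2 scale), as was FBLN2. Of 26 matricellular and adhesive glycoproteins 8 were higher (CHAD, MATN3, MATN4, ACAN, CILP, HAPLN1, THBS2 and CRISPLD2) and 4 lower (TNC, POSTN, SPARCL1 and VCAN), with a median of 0.0015. CHAD (chondroadherin, a collagen-binding protein of cartilage) was at 32.2, 43.3 and 43.2 FPKM in 2DC_L and 185, 201 and 258 FPKM in 2DF (2.45 ± 0.16, edgeR adjusted p = 7.3e-06). MATN3, a matrilin, rose from 1.46 ± 0.127 to 9.72 ± 3.17 FPKM (2.75), ACAN, the cartilage proteoglycan aggrecan, from 0.242 ± 0.0451 to 1.33 ± 0.724 FPKM (2.44), and CILP from 0.360 ± 0.191 to 3.59 ± 3.74 FPKM (3.24), with 2DF replicate 3 at 7.91 FPKM and the others at 1.60 and 1.26 FPKM.

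Of 12 markers of activated stromal cells 5 were lower in 2DF (ACTA2, COL3A1, TNC, POSTN and THY1) and none higher. TNC (tenascin C), a glycoprotein of wounds, was at 59.4, 64.8 and 20.1 FPKM in 2DC_L and 1.60, 0.951 and 6.62 FPKM in 2DF (-3.97 ± 0.68, edgeR adjusted p = 0.0028), and POSTN (periostin) at 5.01 ± 1.36 and 1.49 ± 0.479 FPKM (-1.73). SPARCL1 was lower (-1.19 on the log2 scale). ACTA2, the smooth muscle actin of myofibroblasts, was low throughout, at 1.44, 3.90 and 0.820 against 0.387, 0.512 and 0.173 FPKM (-2.52 ± 0.63, edgeR adjusted p = 0.018). It was no longer a DEG without 2DC_L replicate 2 (edgeR adjusted p = 0.073), 2DF replicate 1 (0.057) or 2DF replicate 3 (0.054).

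Of 28 contractile and actin genes tested, 6 were lower and none higher. Between 2DF and 2DC, 6 of 28 tested were lower in 2DF and none higher. MYL9, the regulatory light chain of nonmuscle and smooth muscle myosin, was at 40.5, 49.1 and 33.6 FPKM in 2DC_L and 6.63, 8.14 and 7.27 FPKM in 2DF (-2.48 ± 0.16, edgeR adjusted p = 6.6e-06). FLNC, a filamin that crosslinks actin, was lower (-1.49 on the log2 scale), and TPM2 and SMTN were also DEGs. Of 25 focal adhesion, caveolar and YAP target genes, the caveolins CAV1 (10.6, 9.23 and 10.9 against 0.753, 0.747 and 1.43 FPKM, -3.38 ± 0.22) and CAV2 (1.33 ± 0.415 against 0.239 ± 0.16 FPKM, -2.44) were the DEGs. They made up 8% of that list, near the 7.39% over all genes tested.

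Matrix proteases differed in both directions. MMP2 (gelatinase A; chromosome 5, 11717915 to 11743377) was at 804, 861 and 661 FPKM in 2DC_L and 2163, 2318 and 2324 FPKM in 2DF (1.56 ± 0.15, edgeR adjusted p = 0.00013), and MMP14, the membrane protease that activates it, at 68.1, 58.2 and 66.5 against 205, 182 and 135 FPKM (1.45 ± 0.15). MMP16, a further membrane-type protease, and MMP19 were lower (-1.99 and -2.17 on the log2 scale). ADAMTS5, an aggrecanase, went from 49.1 ± 22.8 to 8.79 ± 1.44 FPKM (-2.47 ± 0.28), and ADAMTSL1, a relative without protease activity, from 5.39 ± 0.46 to 1.04 ± 0.0478 FPKM (-2.37 ± 0.11). In 2DC the levels of MMP2 and MMP14 were near those of 2DC_L, each with a log2 fold change of 0.10.

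**Figure D5:**
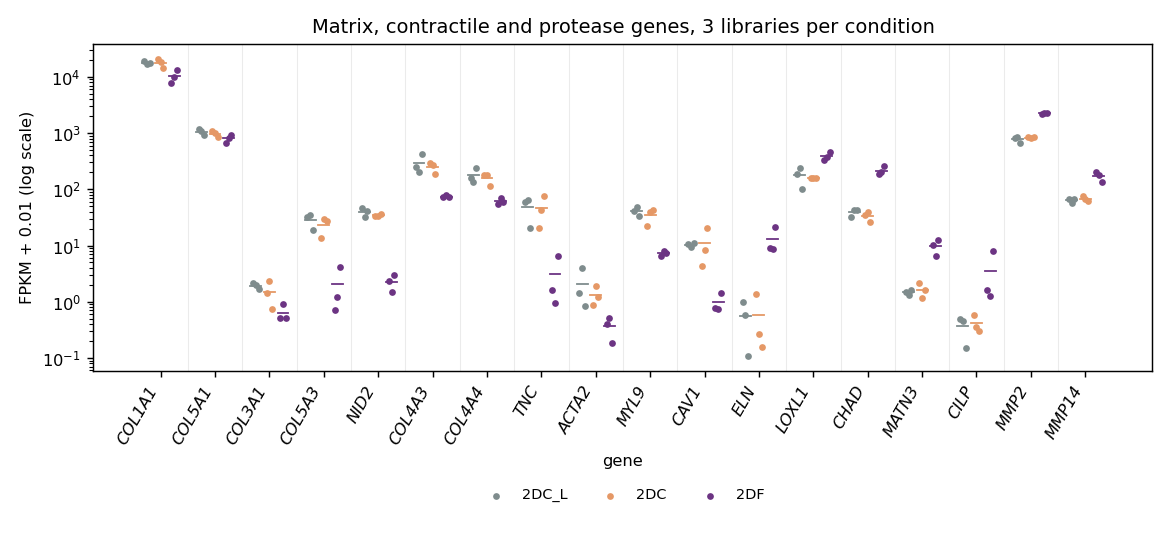
FPKM plus 0.01 on a log axis for matrix, contractile and protease genes in 2DC_L, 2DC and 2DF, with a point per library and a bar at the mean of the 3 libraries. COL1A1 and COL5A1 differ little on this scale, NID2, COL5A3, TNC and CAV1 are lowest in 2DF, and ELN, CHAD, MMP2 and MMP14 are highest in 2DF.

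Secreted signals were likewise changed in both directions. VEGFA was at 28.5, 32.6 and 20.1 FPKM in 2DC_L and 146, 107 and 134 FPKM in 2DF (2.26 ± 0.19, edgeR adjusted p = 3.9e-05). ANGPTL4, an inhibitor of lipoprotein lipase, was at 46.8, 41.3 and 30.7 FPKM in 2DC_L, 186, 124 and 123 FPKM in 2DC and 606, 783 and 341 FPKM in 2DF (3.87 ± 0.30). HGF, a growth factor that keratocytes send to the epithelium, rose by 1.19. IGF1 (3.45, 2.09 and 3.49 against 0.115, 0.224 and 0.409 FPKM, -3.58 ± 0.35), FGF1 (-3.11), PDGFB (-2.48) and NRG1 (-4.08) were lower, and all of them were below 7 FPKM in every library of both conditions. In the BMP pathway, the antagonist NOG (noggin) rose from 0.393 ± 0.10 to 6.39 ± 2.10 FPKM (3.98 ± 0.34), while the ligand BMP4 fell from 12.2 ± 3.04 to 4.91 ± 0.983 FPKM (-1.29). IGFBP6, which binds IGF2, fell from 203 ± 23.8 to 87.8 ± 1.75 FPKM. Of 27 glycolytic and hypoxia genes 5 were higher, among them NDRG1, a hypoxia gene, by 1.17, and none was lower. The median over the list was -0.19, and with no limit on the fold change 5 were higher and 9 lower.

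Of 31 axon guidance genes 8 were lower and 1 was higher, and of 20 cadherins, protocadherins and connexins 5 were lower and 2 higher (1 higher with any 2DC_L library left out). Between 2DF and 2DC, 8 of 32 tested axon guidance genes were lower in 2DF and 1 higher. Of the 19 cadherins, protocadherins and connexins tested there, 2 were lower in 2DF and 1 higher. The semaphorins SEMA3C (154 ± 42.4 against 58.6 ± 6.31 FPKM), SEMA3D (23.1 ± 9.06 against 5.25 ± 1.61 FPKM) and SEMA3E (11.4 ± 3.98 against 2.56 ± 0.58 FPKM), secreted guidance cues for axons, had log2 fold changes of -1.39, -2.13 and -2.13. UNC5B, a netrin receptor, was the member of that list that was higher, at 2.77 ± 0.642 and 11.7 ± 1.40 FPKM (2.09 ± 0.16). CDH8 and CDH13, cadherins, were lower (-1.80 and -2.46 on the log2 scale). SDC1 and SDC4, syndecans that hold growth factors and matrix at the surface, moved in opposite directions, at -1.34 and 1.43. None of the alpha integrins tested was a DEG.

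Of 18 keratocyte genes tested, 2 were higher and 1 was lower in 2DF (median 0.33). B3GNT7, which elongates keratan sulfate chains, was at 60.4, 72.0 and 44.8 against 117, 172 and 127 FPKM (1.24 ± 0.19, edgeR adjusted p = 0.0014), and ANGPTL7, a secreted protein of the cornea, at 9.85, 23.0 and 18.7 against 37.0, 66.2 and 52.8 FPKM (1.61). EPYC, the proteoglycan epiphycan, was at 30.8, 125 and 86.3 against 6.79, 21.3 and 13.1 FPKM (-2.55). KERA (-0.31), LUM (0.46), DCN (decorin, -0.18), OGN (mimecan, -0.63) and the crystallin TKT (0.27) were not DEGs, with edgeR adjusted p-values from 0.073 to 0.52. The crystallin ALDH1A1 was at 457, 571 and 810 FPKM in 2DC_L and 613, 643 and 551 FPKM in 2DF. CHST6, the corneal keratan sulfate sulfotransferase, had a log2 fold change of 0.47 (edgeR adjusted p = 0.018). AQP1, a water channel, was at 175, 476 and 135 against 649, 645 and 457 FPKM (1.16 ± 0.39, edgeR adjusted p = 0.060), and without 2DC_L replicate 2, its high library, it was a DEG (1.92).

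Markers of other cell types were low, and some moved with the condition. The 24 epithelial markers in the table summed to 1.5 to 2.99 FPKM in 2DC_L and 2.52 to 11.9 FPKM in 2DF, with KRT13, EPCAM and S100A9 at 0 in all 6 libraries. KRT12 was at 0 in each 2DC_L library and at 0, 1.26 and 0.25 FPKM in 2DF. KRT3 was at 0.0872, 0.0297 and 0.0507 against 0.168, 1.14 and 0.531 FPKM. Some epithelial markers did not rise, among them TP63 at 0.0564, 0.154 and 0.24 against 0.0827, 0.0820 and 0.0936 FPKM. Of 5 tested, SFN was higher in 2DF (2.86) and KRT5 was at 0.148, 0.0422 and 0.647 FPKM in 2DC_L against 0.517, 3.24 and 2.01 FPKM in 2DF (2.95, edgeR adjusted p = 0.027). KRT5 was no longer a DEG without 2DC_L replicate 1 (edgeR adjusted p = 0.086), 2DC_L replicate 2 (0.065), 2DF replicate 2 (0.10) or 2DF replicate 3 (0.053). DESeq2 called 3 epithelial markers higher and none lower. Immune markers summed to 5.05 to 9.30 FPKM in 2DC_L and 10.3 to 14.6 FPKM in 2DF, with CD163 at 0 and CD68, a lysosomal protein of macrophages, higher by 1.63, the DEG among 4 tested. Some immune markers went the other way, among them TYROBP at 0.572, 0.167 and 0.927 FPKM against 0 in each 2DF library, and PTPRC and ITGAM were also at 0 in 2DF. DESeq2 called 2 immune markers lower. Vascular endothelial markers summed to 97.1 to 116 and 203 to 228 FPKM, of which the transcription factor ERG made up 60.3 ± 6.15 and 149 ± 6.03 FPKM, and CLDN5 and SOX17 were at 0. Of 7 tested, ERG and CDH5 (1.29) were higher and TIE1 was lower, at 0.202, 0.297 and 0.230 against 0.0435, 0.115 and 0.0584 FPKM (-1.72, edgeR adjusted p = 0.027). TIE1 was a DEG in 1 of the 6 fits that left out a library. Schwann and neural markers summed to 36.5 to 41.3 and 14.5 to 19.5 FPKM, most of the difference being NCAM1 (26.6 ± 3.74 against 6.01 ± 1.98 FPKM), and PMP2 was at 0. Corneal endothelial markers summed to 567 to 688 and 514 to 645 FPKM, with ZP4 at 0, and 1 of 9 tested was lower. The part of other cells in the results above was not tested.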

How the data were processed

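RNA was sequenced in 15 libraries, and the 3 of 2DF, 3 of 2DC_L and 3 of 2DC were used here, with conditions read from the library labels. The deposited count table, made by the authors, gives raw reads for each gene without normalization, from alignments to oryCun2. The authors' deposited FPKM values divide these counts by gene length and a library size. That size was 0.921 to 1.08 times the total count in the libraries of 2DF and 2DC_L. The table covers 23428 protein-coding genes, 15408 of them with a symbol. List members filed under a gene number only (21) were matched through RefSeq.

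Genes passing filterByExpr (minimum count of 10) were tested with edgeR 4.0.16 in R 4.3.3, by quasi-likelihood F tests (two-sided) after TMM normalization, with the libraries of the conditions compared as the only ones in the fit, and p-values were adjusted by the Benjamini-Hochberg method. The SE was taken as the absolute log2 fold change over the root of the F statistic. The code was tested on simulated data. DESeq2 1.42.0 and limma 3.58.1 served as alternatives, with other scalings, filters, thresholds and fits and with each library left out in turn. Python 3.11.15, pandas 2.3.3, numpy 2.4.6 and matplotlib 3.10.9 made the summaries and plots.

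The libraries compared and the gene lists were chosen with earlier results of these data known. Genes are named with values if they were among the 10 strongest DEGs per direction (those with a symbol, without overlap and averaging 1 FPKM or more), among the 4 of a list in each direction, the most abundant of a list, or in the keratocyte, AP-1, early response or fibrillar collagen lists. MKI67, HMGCS1, SQLE, INSIG1 and genes named beyond this rule, some without values to account for a list, were chosen after their values were seen. The study describes replicates as separate experiments. Replicate numbers did not pair the libraries of 2DF and 2DC_L. Noncoding genes and reads were not analysed here, and some genes are not reported here.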

Additional observations from a re-analysis of the deposited data

How the results depend on the processing

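Of the 972 DEGs of 2DF vs. 2DC_L, 623 were DEGs in all 6 fits that left out 1 library (242 higher, 381 lower), and the count ranged from 801 to 1043. The count was 491 with limma on log2(FPKM + 1) and 2974 with no limit on the fold change. DESeq2 gave 1058 and no filter 1089. Scaling by library size only moved the median over all tested genes (log2 fold change) from 0.0047 to 0.11 and gave 479 DEGs higher and 511 lower (48.4% higher, against 39.7%). For 2DF vs. 2DC the same scaling gave 50.7% higher, against 41.0%. The 658 DEGs of 2DF vs. 2DC became 302 with limma on log2(FPKM + 1), 1903 with no limit on the fold change and 383 at an adjusted p of at most 0.01, and ranged from 410 to 670 with a library left out, the lowest being 410 without 2DC replicate 2 and 411 without 2DF replicate 1. Those of 2DC vs. 2DC_L (36) ranged from 28 to 38 with a library left out, and were 49 with DESeq2, 41 with no filter, 40 with limma on log2(FPKM + 0.1) and 50 with no limit on the fold change. Within the gene lists, 253 DEGs became 385 with no limit on the fold change. Of the mitotic list 20 genes were lower against 2DC_L with limma on log2(FPKM + 1), where the main fit had 39.

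Deviations of same-numbered libraries of 2DF and 2DC_L correlated at 0.0117, -0.0579 and -0.0562, so the numbers give no pairing. With the replicate number as a block there were 902 DEGs (355 higher, 547 lower), 880 of them shared with the 972, and AQP1 became a DEG (1.38). With the block 2DF vs. 2DC gave 628. For 2DC and 2DC_L, deviations of same-numbered libraries correlated at 0.383, 0.0555 and 0.0888, and not every same-numbered pair shares a name prefix. The block gave 37 DEGs there, 33 of them shared with the 36 of the fit without it.

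Values near zero changed sign. CTGF (-0.08) was at 0.013 with library size only and ranged from -0.37 to 0.13 with a library left out (0.13 without 2DF replicate 1). ALDH1A1 (-0.02) was at 0.097 with library size only, 0.013 with either limma fit, 0.023 with the block, and from -0.19 to 0.24 with a library left out (0.24 without 2DC_L replicate 3 and 0.043 without 2DF replicate 3). DEGs with few reads in 2DF, such as CDK1, MKI67 and GINS4, have fold changes limited by depth.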
